A study of Mus musculus with 98 samples.

Results

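Histone acetyltransferase genes, 9 in number, were followed: Crebbp, Ep300, Kat2a, Kat2b, Kat5, Kat6a, Kat6b, Kat7 and Kat8. They were chosen by name as lysine acetyltransferases whose symbol is present in all 6 count tables of the study, not for any value, and are 9 of 25239 gene symbols in the tables of neurons given virus and 9 of 55367 in the other tables. All 9 passed the filter on low counts in every comparison, and the lowest count of any of them in any of the 98 libraries was 68, for Kat8.

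Histone acetyltransferases move an acetyl group from acetyl-CoA to lysines of histones and other proteins, which loosens chromatin and creates docking sites for bromodomain proteins. Crebbp and Ep300 encode CBP and p300, large coactivators recruited by CREB and many other factors. Kat2a and Kat2b encode GCN5 and PCAF, which take the same catalytic place in the SAGA and ATAC complexes. Kat5 (TIP60), Kat6a (MOZ), Kat6b (MORF), Kat7 (HBO1) and Kat8 (MOF) form the MYST family. In the hippocampus CBP in particular is known for its part in long-term memory. The enzymes draw on acetyl-CoA, and the virus of this study carries Acss2, whose product makes acetyl-CoA from acetate.

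Primary embryonic hippocampal neurons of CD1 mice received a PhP.eB virus carrying Acss2 (upACSS2) or an empty vector on day 5 in culture, were washed on day 7 and then given hAD-tau (a tau preparation, not described further in the labels) or PBS, and were collected on day 9 or day 21 (8 unstimulated groups of 3 libraries). A stimulated set of the same 4 combinations was collected on day 21 (groups of 3; the strain and the stimulus are not in its labels), and a further day 21 culture without virus was given hAD-tau (4 libraries) or PBS (3 libraries). Male C57BL6 mice received upACSS2 or vector by injection behind the eye and were studied at 10 months, 2 weeks after virus (dorsal hippocampus, 6 and 5 mice), or at 22 to 23 months, 2 months after virus (whole hippocampus, 12 and 12 mice). Male PS19 mice, a strain known to carry a mutant human tau transgene under the mouse prion promoter, were studied at 3.5 months, 1 month after virus, or at 8.5 to 9 months, 6 months after virus, in 4 groups of 5. Mice were killed 30 minutes after a behavioural step of fear conditioning that differed between sets: remote recall of the context in the aged mice, acquisition at 10 months, and recall a day after training in PS19 mice. The promoter of the virus is not in the labels, no mouse or culture of the virus sets went without virus, and no PS19 group is free of the transgene.

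Groups follow the sample titles, because the treatment entry of the labels goes against the title in several groups. Acss2 was 1488 to 5462 CPM (the count scaled to library size, with TMM factors) in the 18 neuron libraries titled upACSS2 and 40.1 to 57.9 in the 18 titled vector, which goes with the virus the titles name; no gene here checks the hAD-tau or PBS that they name. In 3 of the 4 comparisons in mice the ranges overlapped: 46.7 to 61.5 against 40.0 to 53.7 CPM in the aged mice, 60.1 to 1465 against 51.5 to 66.3 in PS19 mice at 1 month, and 45.0 to 236.8 against 43.1 to 56.0 at 6 months. At 10 months they did not (49.9 to 59.3 against 42.3 to 48.9). The PS19 mice with upACSS2 at 1 month are labelled whole hippocampus and the other PS19 mice dorsal hippocampus, so virus and tissue cannot be told apart there. Tissue is bound up in the same way with time in the PS19 mice with upACSS2 and with their interaction of virus and time. Total counts ran from 5075099 to 39985460 per library. Neuron markers were present in every library (9 genes, summed to 2437 to 8922 CPM), and the neuron cultures also held astrocyte markers (7 genes, summed to 1940 to 18380 CPM).

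The genes lie on 8 chromosomes of GRCm38: Crebbp on chromosome 16 (4081328 to 4213997), Ep300 on 15 (81585351 to 81652077), Kat2a and Kat7 on 11 (100704746 to 100712465 and 95274259 to 95310246), Kat2b on 17 (53566861 to 53672720), Kat5 on 19 (5603014 to 5610237), Kat6a on 8 (22859535 to 22943259), Kat6b on 14 (21481434 to 21672478) and Kat8 on 7 (127912516 to 127925837). Kat5 overlaps the oppositely oriented Rnaseh2c, and the end of Kat8 overlaps Prss8, so without a known strand setting their counts may include reads of those neighbours. RefSeq promoters of GRCm38.p6 were at hand for 8 of the 9 genes, all but Kat6a. The 250 bases before the start of Kat2a and of Kat2b are shown because these paralogues had opposite changes over culture time. Capitals mark TGACG, the CRE core, a part of the element that CREB binds, searched on both strands; Kat2a is given on its minus strand at chr11:100712468-100712717 and Kat2b on its plus strand at chr17:53566721-53566970.
Kat2a: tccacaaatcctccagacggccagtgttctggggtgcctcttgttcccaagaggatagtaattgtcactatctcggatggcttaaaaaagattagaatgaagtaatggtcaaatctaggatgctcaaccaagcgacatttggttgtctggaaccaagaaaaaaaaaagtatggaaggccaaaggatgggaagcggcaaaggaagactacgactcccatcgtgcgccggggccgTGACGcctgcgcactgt
Kat2b: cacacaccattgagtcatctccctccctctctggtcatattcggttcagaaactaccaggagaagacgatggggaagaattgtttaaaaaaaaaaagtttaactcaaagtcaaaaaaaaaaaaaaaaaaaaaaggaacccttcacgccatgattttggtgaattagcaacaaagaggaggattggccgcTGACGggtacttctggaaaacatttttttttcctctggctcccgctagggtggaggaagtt
The core starts 17 bases before the RefSeq start of Kat2a and 61 bases before that of Kat2b. Kat2b has a second entry, at chr17:53583876-53584125, which lacks the core and is not shown. RefSeq starts can differ from those of the gene annotation given above: the annotated Kat2b start, 53566861, lies inside the Kat2b window, and the core comes after it, within the annotated gene. The 8 genes have 12 promoter entries, and the core was in 6 of the 12, belonging to 5 genes (Kat2a, Kat2b, Kat5, Kat7 and Kat8), and in 17.8% of all 32851 promoters of the same length. The full element TGACGTCA, which contains the core, was in none of the 12 and in 1.55% of all promoters. G and C made up 48.8% of the Kat2a window, 40.8% of the Kat2b window and 84.0% of the Crebbp window, against a median of 52.4%. These are matches of letters and do not show binding.

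Per kilobase of exon, the scale on which levels of different genes can be compared, Kat2a, Kat7 and Kat5 were the most abundant and Crebbp, Kat6b and Kat2b the least. The median of the 22 group means was 16.6 CPM per kb for Kat2a, 15.8 for Kat7, 13.2 for Kat5 and 10.5 for Kat6a. It was 6.18 for Kat8, 5.80 for Ep300, 3.61 for Kat2b, 3.42 for Crebbp and 3.34 for Kat6b. Dividing by the longest annotated transcript in place of all annotated exons moved Kat6b most as a ratio, from a mean over libraries of 3.30 to 7.20 CPM per kb, and put Kat7 and Kat5 above Kat2a.

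**Figure D1:**
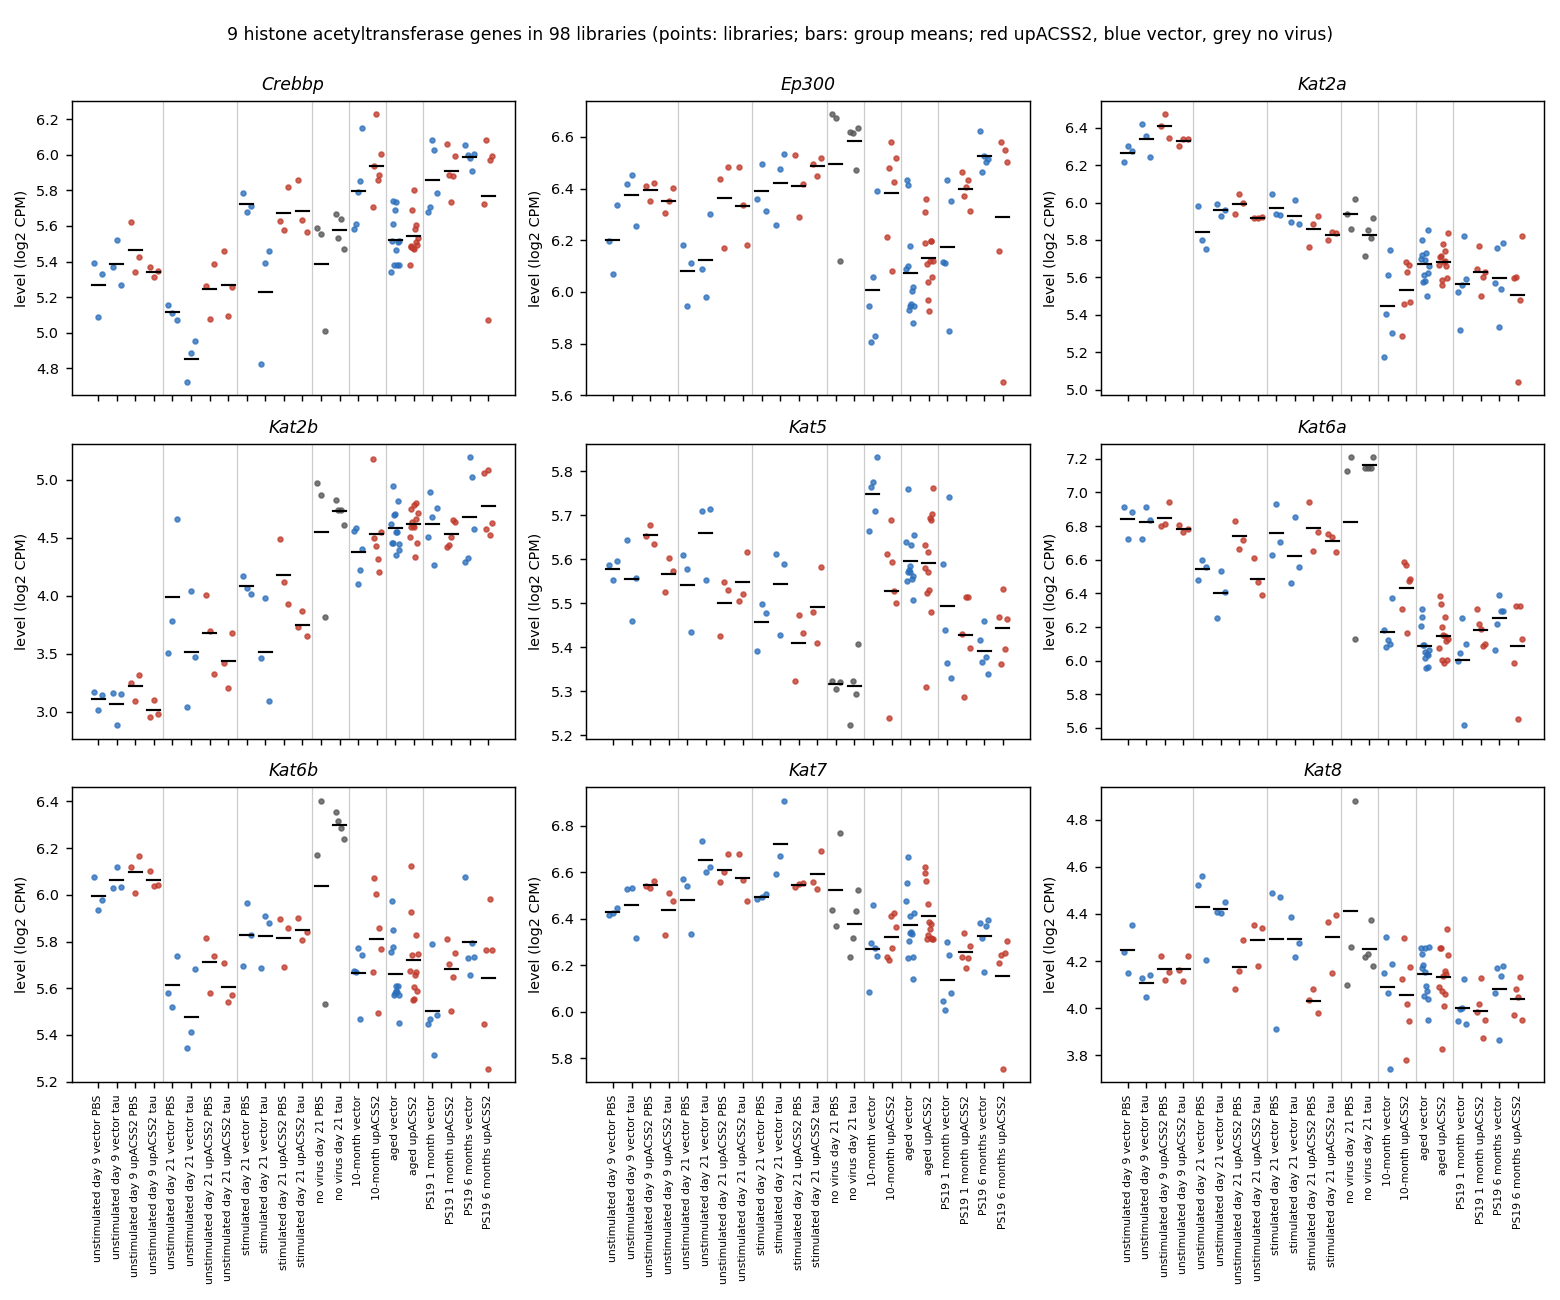
Level of each gene (log2 CPM, vertical axis, a scale of its own in each panel) in all 98 libraries, by group (horizontal axis); points are libraries, black bars group means, red upACSS2, blue vector, grey no virus, and grey lines separate the sets. Kat2a is highest and Kat2b lowest in the day 9 cultures at the left of each panel.

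Within a gene, levels are given as log2 CPM with a prior count of 2, and the tables set side by side come from separate scalings and at least 2 gene annotations. Kat2b had the widest range of group means, 1.76 on the log2 scale, from 3.01 ± 0.08 (SD, n = 3) in day 9 neurons with upACSS2 and tau to 4.77 ± 0.27 (n = 5) in PS19 mice with upACSS2 at 6 months. Kat6a followed with 1.16, from 6.00 in PS19 mice with vector at 1 month to 7.16 in the virus-free neurons with tau. Crebbp spanned 1.13, from 4.86 in unstimulated day 21 neurons with vector and tau to 5.99 in PS19 mice with vector at 6 months. Kat2a spanned 0.96 and Kat6b 0.82.
Kat7, Ep300, Kat8 and Kat5 had the narrowest ranges (0.59, 0.58, 0.44 and 0.44). With the 22 groups placed in order of their means, each gene has 21 pairs of neighbours, and the libraries of neighbouring groups overlapped in 19 (Kat6b) to 21 (Ep300, Kat2b, Kat7 and Kat8) of them. The order of single neighbours is therefore within the spread for almost all groups. Kat2a is the clearest exception: all 12 day 9 libraries, at 6.22 to 6.47, lay above the other 86, of which the highest was 6.04.

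The clearest differences lay between day 9 and day 21 of the unstimulated cultures. Kat2a and Kat6b fell in all 4 settings (vector or upACSS2, with PBS or tau), Kat6a fell in 3, and Kat2b rose with vector and PBS. Each was tested with edgeR's quasi-likelihood test, with p-values adjusted over all genes by Benjamini-Hochberg. The calls numbered 4 of 9 with vector and PBS, 7 with vector and tau, 2 with upACSS2 and PBS and 3 with upACSS2 and tau. Of all genes tested, 57.7%, 52.6%, 54.3% and 53.6% were called in these comparisons, so that a change with day was common among genes. The counts of the 9 lay above that background with vector and tau and below it in the other settings. In the same order, the median absolute log2 fold change was 0.187, 0.383, 0.153 and 0.136 for the 9 genes. For all genes it was 0.427, 0.398, 0.404 and 0.391. The labels do not say whether libraries of a group came from separate cultures, and p-values then measure only the spread between these libraries.

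Kat2a, the GCN5 gene, was at 6.22, 6.30 and 6.27 log2 CPM on day 9 with vector and PBS and at 5.98, 5.80 and 5.75 on day 21. The groups did not overlap, as for 58.3% of all genes in this comparison. The same held with vector and tau, upACSS2 and PBS, and upACSS2 and tau, as for 59.8%, 64.5% and 68.4% of all genes. The log2 fold change was -0.42 ± 0.06 (SE; adjusted p = 1.49e-05, edgeR) with vector and PBS, -0.38 with vector and tau, -0.42 with upACSS2 and PBS and -0.41 with upACSS2 and tau. Kat2a thus had nearly the same fall, from about 80.8 to 60.9 CPM over all 24 libraries, whatever the virus or treatment; the test of a difference in the day effect between upACSS2 and vector in PBS gave 0.00 with a 95% interval of -0.19 to 0.19.

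Kat2b, the PCAF gene, went the other way. With vector and PBS it was at 3.17, 3.01 and 3.14 log2 CPM on day 9 and at 3.51, 3.78 and 4.66 on day 21, without overlap (8.53 and 16.7 CPM on average). The log2 fold change was 0.98 ± 0.25 (adjusted p = 0.00239, edgeR). The third day 21 library held much of it: without it the log2 fold change was 0.54 (adjusted p = 0.0474). In the other settings Kat2b was higher on day 21 by 0.50 (adjusted p = 0.11), 0.48 (0.112) and 0.44 (0.155) on the log2 scale, which did not pass the test.
The mean of the 4 day effects, a contrast added after these values were seen, was 0.60 ± 0.13 for Kat2b (adjusted p = 0.000232, edgeR), and 0.48 without the same library. In that contrast 7 of the 9 genes were called, against 76.4% of all genes: Crebbp, Kat2a, Kat6a and Kat6b lower, and Kat2b, Kat7 and Kat8 higher.

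**Figure D2:**
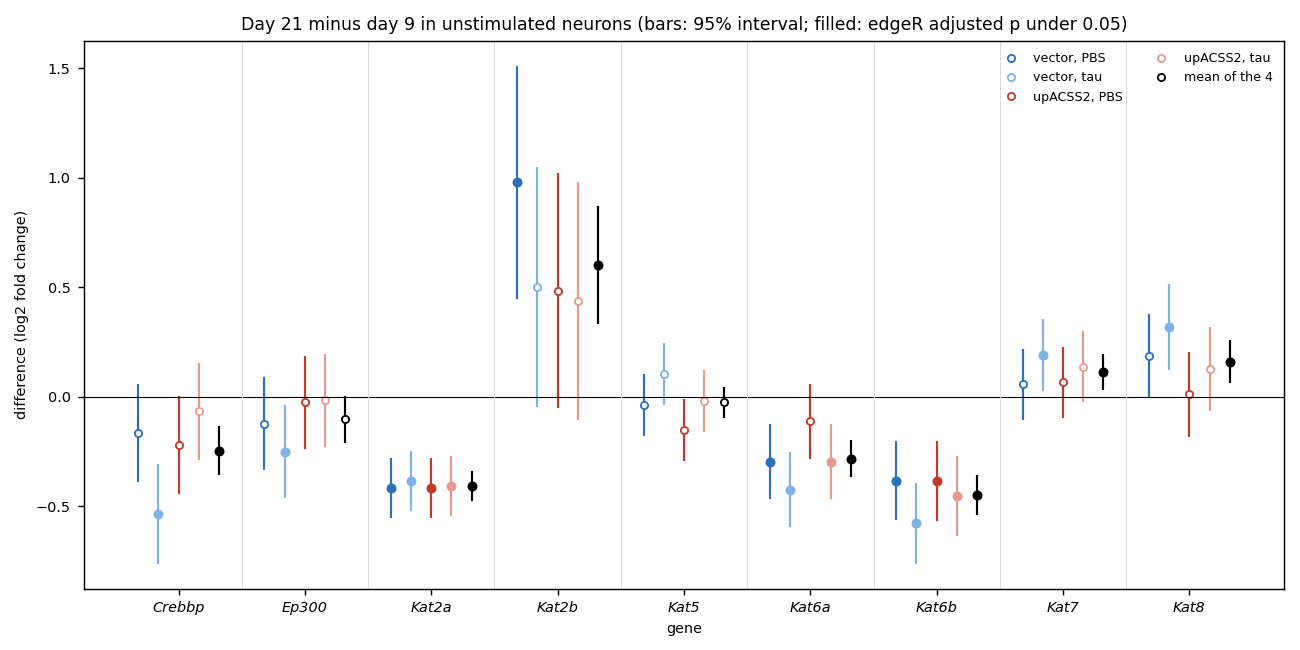
Difference between day 21 and day 9 in unstimulated neurons (log2 fold change, vertical axis) for each gene in the 4 settings and for their mean; bars are 95% intervals, and filled points passed an edgeR adjusted p of 0.05. Kat2a lies between -0.42 and -0.38 in every setting, and Kat2b is the only gene above 0.4.

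Within a library the log2 level of Kat2b minus that of Kat2a runs free of the scaling between libraries. It averaged -3.32 to -3.16 in the 4 day 9 groups, -2.49 to -1.86 in the unstimulated day 21 groups and -2.42 to -1.68 in the stimulated ones. It was -1.39 and -1.10 in the virus-free cultures and -1.10 to -0.73 in the mice. The 12 day 9 libraries (-3.48 to -3.03) all lay below every other library, of which the lowest was -2.95. The other pairs of related genes had narrower ranges of group means: Kat6b minus Kat6a averaged -1.03 to -0.43 and Crebbp minus Ep300 -1.27 to -0.21 over the 22 groups.

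Glial markers moved with day too. The summed astrocyte markers were 2105 to 2605 CPM in the 12 day 9 libraries and 3224 to 18380 in the 12 day 21 libraries, and in the mean day contrast 6 of the 7 markers rose. The oligodendrocyte markers went from 36.1 to 45.9 CPM, with up to 2 of 7 markers at 0 in a library, to 200 to 1336 CPM. The summed neuron markers were 6725 to 7601 CPM on day 9 and 4586 to 7639 on day 21. The day 21 library with the highest Kat2b (4.66) was also the one with the highest astrocyte sum (18380 CPM). Their part in the day effects was not tested, and in bulk RNA fewer cells of a type and less RNA per cell cannot be told apart.

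**Figure D3:**
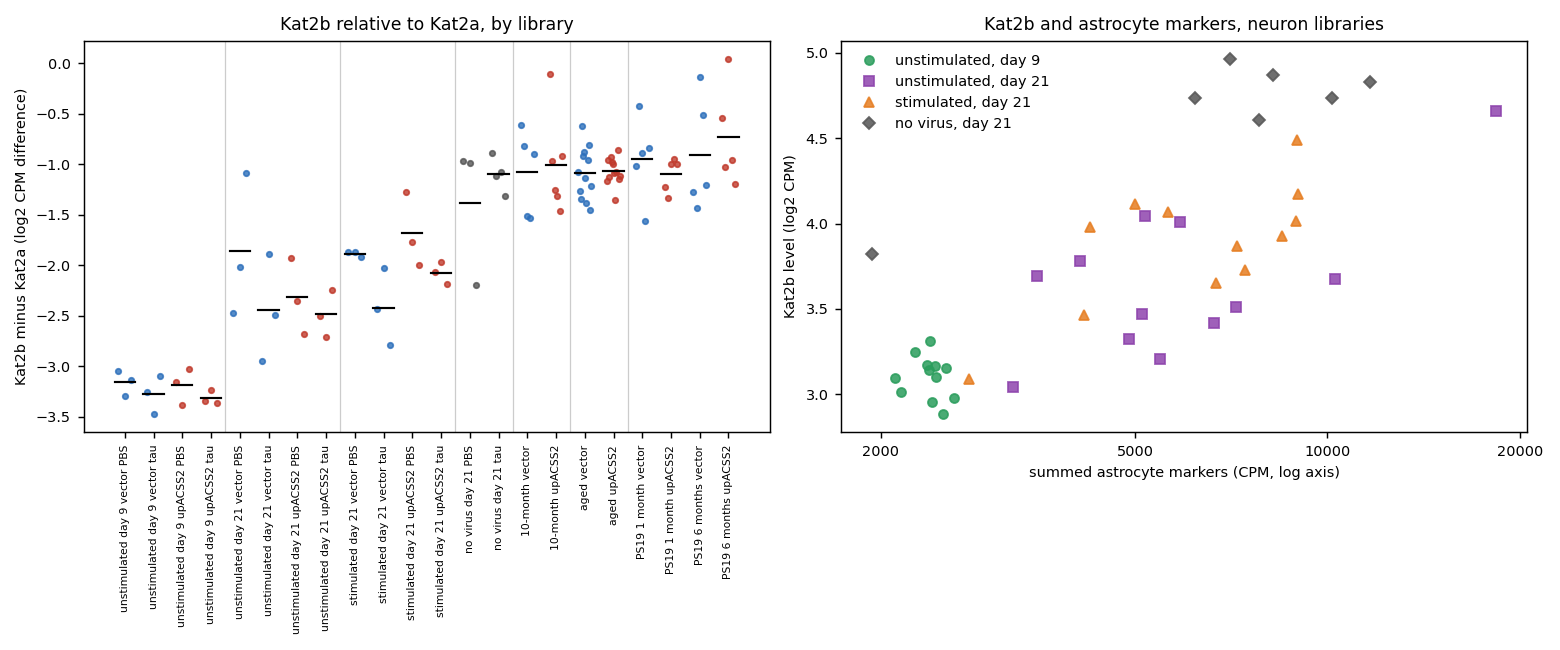
Left, Kat2b minus Kat2a (log2 CPM difference, vertical axis) per library by group, with black bars at group means; red upACSS2, blue vector, grey no virus. Right, Kat2b level (log2 CPM) against the summed astrocyte markers (CPM, log axis) in the 43 neuron libraries; the day 9 libraries lie at 2105 to 2605 CPM and the day 21 library with the highest sum at 18380 CPM.

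Of the MYST genes, Kat6b (MORF) had the largest falls, -0.38 ± 0.09 with vector and PBS, -0.58 ± 0.09 with vector and tau, -0.39 ± 0.09 with upACSS2 and PBS and -0.45 ± 0.09 with upACSS2 and tau. The 12 day 9 libraries held 5.93 to 6.17 log2 CPM and the 12 day 21 libraries 5.34 to 5.82, without overlap. Kat2a and Kat6b were the only 2 of the 9 without overlap over all 12 against 12 libraries, which held for 31.3% of all genes. Kat6a (MOZ) fell by 0.30, 0.42 and 0.30 on the log2 scale with vector and PBS, vector and tau, and upACSS2 and tau; with upACSS2 and PBS it was 6.80, 6.81 and 6.94 on day 9 and 6.83, 6.67 and 6.72 on day 21, a log2 fold change of -0.11 (adjusted p = 0.251, edgeR). Kat8 (MOF) rose by 0.32 ± 0.09 and Kat7 (HBO1) by 0.19 ± 0.08 with vector and tau, and neither was called in the other 3 settings. Kat5 (TIP60) was called in none, with log2 fold changes of -0.15 to 0.11. The Kat7 call and the Ep300 call of the same comparison (-0.25, adjusted p = 0.0426) sat close to the threshold and were lost in several other analyses.

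Crebbp fell with day with vector and tau, by 0.54 ± 0.11 on the log2 scale (adjusted p = 0.000294, edgeR). It stood at 5.37, 5.52 and 5.27 log2 CPM on day 9 and at 4.72, 4.89 and 4.96 on day 21. The 3 day 21 libraries were the lowest 3 of all unstimulated libraries for Crebbp. With vector and PBS, upACSS2 and PBS, and upACSS2 and tau the log2 fold changes were -0.16, -0.22 and -0.07, and none was called. The difference in the day effect between tau and PBS with vector was -0.37 ± 0.15 on the log2 scale, which did not pass the test (adjusted p = 0.584); 0.00673% of all genes were called in that interaction and 0.0404% in that of day and virus.

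Crebbp was lowest with vector and tau among the day 21 groups of the unstimulated and of the stimulated set. No difference from the neighbouring groups passed the test. In the other settings tau went with a lower mean only on day 9 with upACSS2 (5.34 against 5.46 log2 CPM with PBS). Means with tau and with PBS were 5.58 and 5.38 without virus, and 5.39 and 5.27 on day 9 with vector. On day 21 with upACSS2 they were 5.27 and 5.24 unstimulated, and 5.69 and 5.67 stimulated. In the unstimulated day 21 cultures, 4.72, 4.89 and 4.96 log2 CPM with vector and tau stood against 5.16, 5.11 and 5.07 with vector and PBS. With upACSS2 and tau the values were 5.46, 5.09 and 5.26. The vector and tau libraries were below both groups without overlap, which held for 9.47% of all genes against PBS and 21.7% against upACSS2. The log2 fold change was -0.27 ± 0.12 for tau against PBS with vector (adjusted p = 0.53, edgeR). It was 0.43 ± 0.12 for upACSS2 against vector in tau (adjusted p = 0.28, edgeR). With 1 estimate of spread for all 24 unstimulated libraries, the latter had an adjusted p of 0.0315 (edgeR). That fit called 528 genes in all in this comparison, in place of 4. It averages 2 unequal spreads, with a biological coefficient of variation of 0.042 on day 9 and 0.189 on day 21.
In the stimulated set Crebbp was at 4.83, 5.39 and 5.46 log2 CPM with vector and tau, 5.79, 5.68 and 5.71 with vector and PBS, and 5.86, 5.63 and 5.57 with upACSS2 and tau. The vector and tau libraries again lay below both without overlap, which held for 26.7% of all genes against PBS and 24.7% against upACSS2. The log2 fold change was -0.47 ± 0.14 for tau against PBS with vector (adjusted p = 0.0774, edgeR; 0.029 by DESeq2; log2 fold change -0.30 without the first vector and tau library) and 0.44 ± 0.14 for upACSS2 against vector in tau (adjusted p = 0.122; 0.26 without the same library). For tau against PBS with vector in the stimulated set, DESeq2 called 1534 of 14939 genes in all and edgeR 451. With a term for each replicate number, edgeR called 1069 genes there and 0 of the 9. For upACSS2 against vector in tau, that term gave 399 genes in place of 140, and again 0 of the 9. In each set both comparisons use the same 3 vector and tau libraries, so they are not separate observations. The interaction of virus and tau was 0.31 (adjusted p = 0.659) in the unstimulated and 0.48 (adjusted p = 0.308) in the stimulated day 21 cultures.
Astrocyte markers all lay on 1 side of 0 in the same comparisons, though most were not called. For tau against PBS with vector all 7 had values below 0, with a median log2 fold change of -0.96 unstimulated (0 called) and -0.79 stimulated (2 called). The unstimulated sums overlapped, at 3224 to 5190 CPM with tau and 4100 to 18380 with PBS (median 7194), the highest from 1 library. For upACSS2 against vector in tau all 7 had values above 0, with medians of 0.53 and 0.94 and 0 called in either set. Their part in the Crebbp values was not tested.

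**Figure D4:**
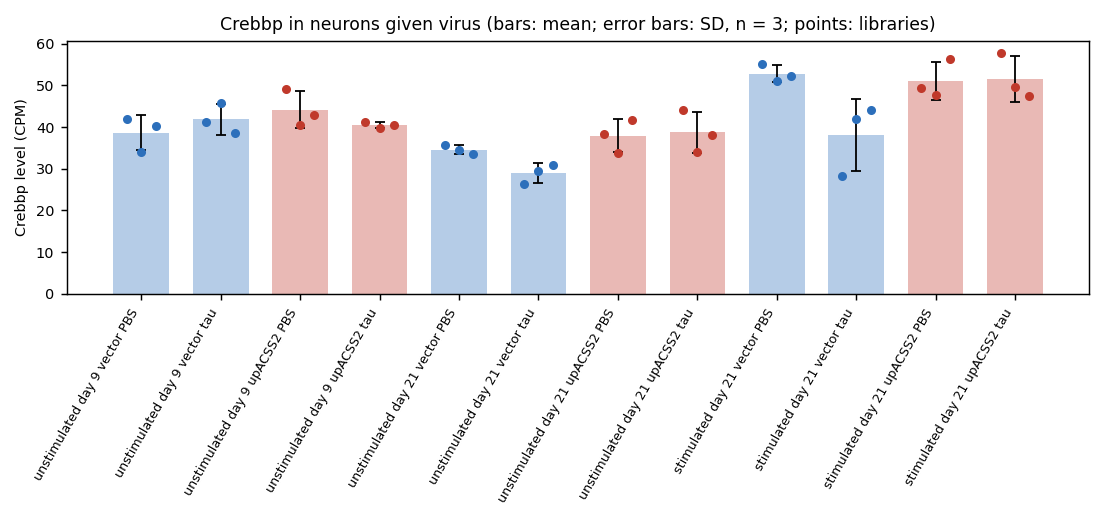
Crebbp level (CPM, vertical axis) in the 12 groups of neurons given virus; bars are means, error bars SD (n = 3), points libraries, red upACSS2 and blue vector. The vector and tau groups of day 21 have the lowest mean of their set, 28.9 CPM unstimulated and 38.1 CPM stimulated.

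For the question of whether upACSS2 changes the expression of the enzymes that use acetyl-CoA, 10 comparisons of upACSS2 with vector were made, and 1 of the 90 gene tests passed. In day 9 neurons with PBS, Ep300 was at 6.41, 6.35 and 6.42 log2 CPM with upACSS2 and at 6.20, 6.07 and 6.34 with vector. The groups did not overlap for Ep300, Kat2a, Kat5 and Kat7, 4 of 9, and for 30.8% of all genes. The log2 fold change was 0.18 ± 0.06 (adjusted p = 0.0417, edgeR; 84.0 against 73.7 CPM). In that comparison 10.2% of all genes were called, so that 1 of 9 is near the background. With tau on the same day Ep300 differed by -0.03 ± 0.06 (adjusted p = 0.885), and the difference between these effects was -0.21 (adjusted p = 0.167; 0.663% of all genes called). Crebbp (0.18), Kat2a (0.14) and Kat7 (0.11) also had positive values with PBS, at adjusted p-values of 0.12, 0.0725 and 0.184. The Ep300 call was lost when any of 5 of the 6 libraries was left out, with adjusted p-values of 0.0768 to 0.174, and in the fit of all 24 unstimulated libraries (0.889).

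In the other 9 comparisons of upACSS2 with vector 0 of the 9 genes were called. The background was 0.692% on day 9 in tau, 0.0137% and 0.0273% on day 21 in PBS and in tau, 0.208% and 0.937% in the stimulated neurons, and 0% in each of the 4 comparisons in mice. Acss2 itself, the gene carried by the virus, was therefore not called in the main fit of any comparison in mice (its ranges are given above). In the aged mice, a term for replicates 1 to 3 gave 14 called genes in all. Replicates 4 to 12 alone gave 6, and a term for each replicate number gave 13. In each of these fits 0 of the 9 were called. At an unadjusted p below 0.05 the 9 genes gave 0 on day 9 in tau (12.6% of all genes), 2 and 1 on day 21 in PBS and in tau (16.6% and 10.7%) and 0 and 1 in the stimulated neurons (15.9% and 20.4%). In mice they gave 0 in the aged (5.58% of all genes), 3 at 10 months (8.83%) and 0 in PS19 mice at 1 and 6 months (2.92% and 14.1%). DESeq2 and limma voom called 0 members in each of the 9 as well.
The width of the intervals differed between sets. In the 24 aged mice the 95% intervals of all 9 genes lay between -0.12 and 0.20 on the log2 scale. In the unstimulated day 21 neurons they reached from -1.14 to 0.70, with Kat2b the widest.

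**Figure D5:**
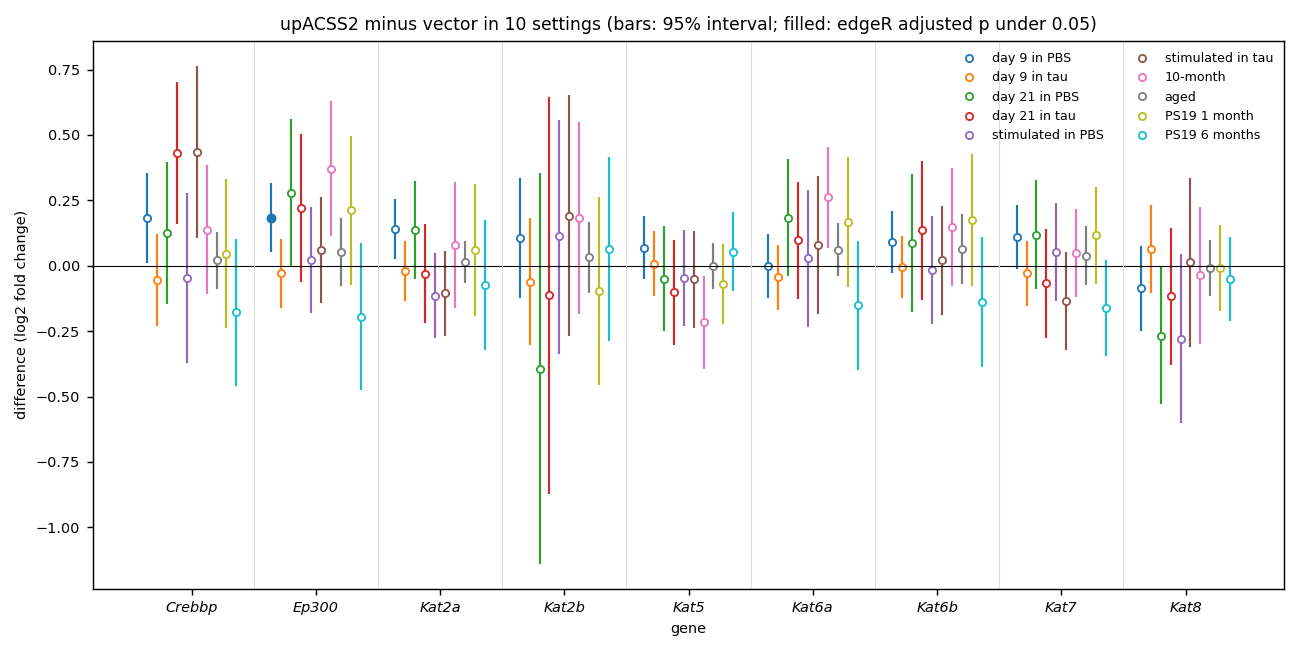
Difference between upACSS2 and vector (log2 fold change, vertical axis) for each gene in 10 settings; bars are 95% intervals, and the filled point passed an edgeR adjusted p of 0.05. The aged mice have the narrowest intervals, from -0.12 to 0.20 over the 9 genes, and Kat2b on day 21 has the widest.

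In aged mice the median Crebbp level was 5.50 log2 CPM (5.38 to 5.80) with upACSS2 and 5.51 (5.34 to 5.74) with vector. Kat6b, with the largest difference of the 9, had a median of 5.67 (5.55 to 6.12) against 5.60 (5.45 to 5.97), a log2 fold change of 0.06 ± 0.06 (adjusted p = 0.974, edgeR). The groups overlapped almost wholly for every gene, with log2 fold changes of -0.01 to 0.06.
At 10 months the values were larger and none passed the test. Ep300 had a median of 6.45 (6.08 to 6.58) with upACSS2 against 5.95, 5.81, 6.06, 5.83 and 6.39 with vector, a log2 fold change of 0.37 ± 0.11, and Kat6a one of 0.26 ± 0.09. Kat5 went the other way (-0.22 ± 0.08), from 5.66, 5.76, 5.78, 5.71 and 5.83 with vector to a median of 5.56 (5.24 to 5.69). All 3 had an adjusted p of 0.518 and groups that overlapped.

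In PS19 mice 0 of the 9 genes were called for upACSS2 against vector at either time. At 1 month Ep300 was at 6.47, 6.37, 6.40, 6.43 and 6.31 log2 CPM with upACSS2 and at 6.12, 6.11, 6.43, 5.85 and 6.35 with vector (0.21 ± 0.13, adjusted p = 0.964, edgeR). At 6 months it was at 6.16, 6.58, 5.65, 6.55 and 6.50 with upACSS2 and at 6.62, 6.46, 6.52, 6.50 and 6.51 with vector (-0.20 ± 0.13, adjusted p = 0.5), a difference of -0.08 without the third upACSS2 mouse. The groups overlapped at both times. The interaction of virus and time was -0.41 ± 0.19 for Ep300 (adjusted p = 0.396, edgeR) and -0.28 ± 0.12 for Kat7 (adjusted p = 0.38), and -0.29 and -0.20 without that mouse. The interaction takes in the upACSS2 mice at 1 month, labelled whole hippocampus, so it cannot be told apart from tissue.
The third mouse with upACSS2 at 6 months was the lowest of its group for Crebbp (5.07, the others 5.72 to 6.08), Ep300 (5.65), Kat2a (5.04), Kat6a (5.65), Kat6b (5.26) and Kat7 (5.75); without it 0 of the 9 were called as well. The comparison of 6 months with 1 month after virus in the vector mice gave 0 calls among the 9 where 7.46% of all genes were called. Ep300 was higher at 6 months by 0.34 ± 0.13 without overlap, which held for 9.82% of all genes (adjusted p = 0.116), and Kat6b by 0.30 ± 0.12 (adjusted p = 0.124). Of the 9 genes, 8 had a positive log2 fold change there, all but Kat5 (-0.11). The median was 0.123 for the 9 and 0.006 for all genes. These signs are not separate observations, because some of the 9 moved together over the 20 PS19 libraries. Pearson r was 0.889 for Ep300 with Kat6a and 0.863 for Crebbp with Kat7, though -0.634 for Ep300 with Kat5. With upACSS2 0 of the 9 were called between the same times (0.0442% of all genes, and 0 of the 9 at an unadjusted p below 0.05, edgeR), with log2 fold changes of -0.10 to 0.26. Time and tissue cannot be told apart in that comparison.

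Treatment with hAD-tau was compared with PBS in 7 settings, and 0 of the 9 genes were called in any. On day 9, 4.28% of all genes were called with vector and 0.349% with upACSS2; on day 21, 0% in both; in the stimulated neurons 3.02% with vector and 0.208% with upACSS2; and without virus 0%. At an unadjusted p below 0.05 the 9 genes gave 1 on day 9 with vector and 1 with upACSS2 (20.6% and 9.05% of all genes), 1 and 1 on day 21 (9.3% and 6.36%), 3 and 1 in the stimulated neurons (24.3% and 14.3%) and 0 without virus (13.9%). DESeq2 called 1 of them with vector in the stimulated neurons, Crebbp, and limma voom none in any of the 7. In that comparison DESeq2 called 1534 of 14939 genes in all, where edgeR called 451.
Kat2b had values below 0 for tau in 6 of these 7 settings, while only the virus-free culture had a positive one (0.10). Stimulated neurons with vector had 4.17, 4.07 and 4.02 log2 CPM with PBS and 3.46, 3.98 and 3.09 with tau (-0.53 ± 0.20, adjusted p = 0.133, edgeR). That value was -0.80 (adjusted p = 0.0242) without the second tau library and -0.34 (0.371) without the third. With upACSS2 they had 4.49, 4.11 and 3.93 with PBS and 3.73, 3.87 and 3.65 with tau (-0.45 ± 0.20, adjusted p = 0.325; -0.27 without the first PBS library). Neither pair of groups overlapped; with upACSS2 that held for 23.7% of all genes. In the stimulated neurons with vector the astrocyte sum was 5622 to 8982 CPM with PBS and 2748 to 4253 with tau, and 2 of the 7 astrocyte markers fell; with upACSS2 it was 5003 to 8973 and 6687 to 7438 CPM. The part of these cells in the Kat2b values was not tested.

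In the culture without virus, the third PBS library stood apart for most of the 9 genes. It held 6.13 log2 CPM of Kat6a against 7.13 and 7.21 in the other PBS libraries, 3.82 of Kat2b against 4.97 and 4.87, and 4.88 of Kat8 against 4.10 and 4.26. Its astrocyte sum was 1940 CPM against 7039 and 8211, and its neuron sum 5856 CPM against 3676 and 3362. Tau and PBS overlapped for all 9 genes, 0 were called with or without that library, and the 95% intervals ran from -0.71 to 0.88 on the log2 scale.

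Partners and subunits were followed in 7 lists of 83 genes. With day, in vector and PBS, 16 of the 83 rose and 36 fell (62.7% called, beside 57.7% of all genes). Of the subunits of SAGA and ATAC, home of GCN5 and PCAF, 2 of 23 rose and 6 fell; the SAGA deubiquitinase Usp22 fell by 1.60 ± 0.14 on the log2 scale (adjusted p = 8.95e-09, edgeR). Of the subunits that work with MOZ, MORF and HBO1, 3 of 9 rose and 5 fell, and Jade2, a scaffold of the HBO1 complex, rose by 1.54 ± 0.16. The NuA4/TIP60 list had 3 of 16 higher and 5 lower, the MSL and NSL list of Kat8 1 of 10 higher and 5 lower, and the CBP and p300 partners 4 of 9 higher and 4 lower, with Cited1, which binds both, at 1.46 ± 0.30. Among the other acetyltransferases 3 of 13 rose and 8 fell; Atat1, the enzyme that acetylates tubulin, fell by 1.27 ± 0.09.
With upACSS2 on day 9 in PBS, 11 of the 83 rose and 1 fell (14.5%, beside 10.2% of all genes). In the fit of all 24 unstimulated libraries only 2 genes in all were called in that comparison, in place of 1437. Usp22 (0.26 ± 0.04) and Brpf3 (0.28 ± 0.07), the scaffold of a MYST complex, were among those that rose, and Morf4l1 fell by 0.16 ± 0.05. In tau, none of the 83 was called, and the difference between the upACSS2 effects passed the test for Usp22 (-0.27 ± 0.06, adjusted p = 0.0436). With tau in place of PBS, 2 of the 83 rose and 1 fell on day 9 with vector (3.61%, beside 4.28% of all genes): the CREB coactivator Crtc1 (0.23 ± 0.06), Usp22 (0.17 ± 0.04) and Dr1 (-0.28 ± 0.05). In stimulated neurons with vector, Dr1 (0.35 ± 0.08, adjusted p = 0.0471, edgeR) and Naa60 (0.31 ± 0.07, adjusted p = 0.0492) rose and none fell (2.41%, beside 3.02% of all genes). By limma voom, and in a fit of these 2 groups alone, 0 genes in all were called in that comparison. In PS19 mice with vector, 9 of 80 tested were higher at 6 months and 3 lower (15%, beside 7.46% of all genes); Mrgbp, a TIP60 complex subunit, rose by 0.61 ± 0.12, and Eid1, an inhibitor of p300, fell by 0.50 ± 0.09. None of the lists had a called gene for upACSS2 against vector in mice.

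Genes whose levels followed each member most closely over the 24 unstimulated libraries were taken from 10037 expressed genes, as a description: the libraries share culture, day and treatment, and day alone orders many genes. For Kat2a they were Dtx1, Pde10a and Wiz (Pearson r = 0.975, 0.974 and 0.973), with 0.337 to 0.459 over the 20 PS19 libraries. For Kat2b they were Pla2g7, Cpt1a and Hadha (0.936 each), the last 2 enzymes of fatty acid oxidation, with 0.634 to 0.775 in PS19. Kat6b went with Kmt2c, a histone methyltransferase (0.972), Ccdc88a and Cntnap5a, and Kmt2c stayed at 0.808 in PS19. Ep300 went with the chromatin remodellers Srcap (0.916) and Ep400 (0.910) and with Srrm2 (0.873), at 0.697, 0.897 and 0.811 in PS19.
For Crebbp the closest were Cdk12, Sec16a and Cep350 (0.863 to 0.838), and for Kat6a Pcm1, Tnc and Rfx7 (0.929 to 0.921; 0.64, 0.191 and 0.756 in PS19). Kat5 had the weakest likeness, with Gnas, Spata7 and Zdhhc7 at 0.793 to 0.741. Kat7 went with Ociad1, Rpusd1 and Otub1 (0.870 to 0.821) and Kat8 with Slc25a27, Dalrd3 and Itgb1bp1 (0.858 to 0.821), of which Ociad1 was at -0.08, Rpusd1 at 0.06 and Itgb1bp1 at -0.20 in PS19. Among the members themselves Kat6a and Kat6b had r = 0.873 over the 24 libraries and Kat2a and Kat2b -0.744.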

How the data were processed

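RNA was sequenced from 98 mouse libraries in 22 groups. The values are whole-number counts, deposited by the authors without normalization in 6 tables of gene symbols by library. Per the submitters' processing notes STAR, featureCounts, HTSeq and DESeq2 were used with mm10; which counter made which table, the annotation and the strand setting are not given in the sources used here, so reads of overlapping genes may be split in an unknown way. A row without a gene name (6.13% to 8.74% of counts, virus-free table) was left out.

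Each comparison was fitted in edgeR 4.0.16, run under R 4.3.3 (quasi-likelihood F test, TMM, default filter by group, Benjamini-Hochberg over all genes tested, threshold 0.05, two-sided) in 30 comparisons. Comparisons within day 9 or day 21 used the 12 unstimulated libraries of that day, because the biological coefficient of variation was 0.042 on day 9 and 0.189 on day 21; those between days used all 24. Intervals of 95% used the residual degrees of freedom. Levels are log2 CPM with a prior count of 2. DESeq2 1.42.0, limma 3.58.1 (voom), other scalings and filters, a replicate block and leaving out libraries were alternatives. Simulated 2-fold changes were recovered in 98.5% of cases on day 9, 69.5% on day 21, 85% between days, 89.5% in stimulated neurons, 98.49% in aged mice, 84.97% at 10 months, 80.5% in PS19 mice and 21% without virus. Of the simulated calls, 2.488% (aged mice) to 8.553% (day 21) were false. Every change of the 9 genes in the main fits was smaller than 2-fold, and smaller changes were not simulated.

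The 9 genes, the lists and the tests were chosen with earlier results of these data known. Named genes are the 9 members, the 3 most alike genes of each, and of the lists at most the 2 highest and 2 lowest called genes per comparison. No 2 libraries of a group agreed within sampling noise (242 pairs). Same-numbered libraries deviated together without virus (r = 0.22 to 0.394) and, in the stimulated neurons, between upACSS2 and vector in tau (0.111 to 0.359) and between tau and PBS with vector (0.123 to 0.326), a pairing read from the data, not the labels. The result of 1 of the 7 lists is not reported here.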

Additional observations from a re-analysis of the deposited data

Results flagged for a closer look

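In the 7 groups of 4 to 10 libraries, each of the 9 genes was checked for a library far from the rest; 4 of these 63 checks found one, and chance gives about 1 in 20 (3.15 of 63). Without virus, the third tau library had 6.47 log2 CPM of Ep300 (the others 6.62 to 6.63) and the fourth 7.21 of Kat6a (7.14 to 7.15). The first 10-month mouse with upACSS2 had 5.18 of Kat2b (4.21 to 4.55); its summed choroid plexus markers (Ttr, Folr1 and Kl) were 5379 CPM against 83.8 to 201.4 in the other upACSS2 mice and 4396 in the first vector mouse (Kat2b 4.56), and their part in the value was not tested. The third PS19 mouse with upACSS2 at 6 months had 5.75 of Kat7 (6.21 to 6.30).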

How the results depend on the processing

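Simulated 2-fold changes were found in 98.5% of cases on day 9, 69.5% on day 21 and 21% without virus, where the biological coefficient of variation was 0.042, 0.189 and 0.279. Smaller changes, such as those of the 9 genes, were not simulated. The strand setting is unknown, and day, glial markers and time in culture move together. The number of members called moved as follows. Day 9 upACSS2 against vector in PBS: 1, but 2 without a filter (1898 of 20654 genes called in all). It was 0 in the fit of all 24 unstimulated libraries (2 genes called in all, in place of 1437) and 0 with the replicate block (adjusted p = 0.0539 for Ep300, edgeR). Day 9 tau against PBS with vector: 0, but 1 (Ep300) without a filter, where 1153 of 20654 genes were called. Day 21 upACSS2 against vector in tau: 0, but 1 (Crebbp) with all 24 libraries, where 528 genes were called in place of 4. Day 21 against day 9 with upACSS2 and PBS: 2, but 4 by limma voom, where 8593 genes were called in place of 8072. Stimulated tau against PBS with vector: 0, but 1 by DESeq2, where 1534 genes were called in place of 451. The causes were not tested. The replicate block changed no other count of members by over 1.5 times, whether or not the numbers pair the libraries.

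Leaving out 1 library at a time gave 0 to 1 members for day 9 upACSS2 against vector in PBS, for day 9 tau against PBS with vector, for the day 9 interaction and for stimulated tau against PBS with vector; 4 to 5, 5 to 6, 2 to 3 and 3 between days with vector and PBS, vector and tau, upACSS2 and PBS, and upACSS2 and tau; 7 to 8 for the mean day effect; and 0 elsewhere (the aged groups of 12 were not included). None of the 45 single-gene values followed through the alternatives changed sign. The levels per length with the longest transcript, an alternative chosen after seeing the data, averaged 4.49 (Crebbp), 8.21 (Ep300), 20.6 (Kat5), 7.20 (Kat6b), 24.0 (Kat7) and 11.3 (Kat8) CPM per kb over the 98 libraries.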
